A study of Mus musculus with 5 samples.

Results

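In adult mouse testis, 4250 transcripts carried an RNA polymerase II (Pol II) score of at least 100 at their promoter and no score for TAF7L in any of the promoter, proximal and distal classes. They were 7.67% of the 55419 transcripts in the binding table and 17.2% of the 24696 transcripts that reached that Pol II score. Of the other transcripts with that Pol II score, 15818 had a TAF7L score at the promoter, and 4628 had one in the proximal or distal class only. The binding scores chose these transcripts and are therefore given as a description. A gene was counted as a member when at least 1 of its transcripts met the rule, which gave 1919 named member genes of 11010 named genes with that Pol II score, or 17.4%. A further 564 member transcripts carried only a clone accession. Because transcripts of a gene, and neighbours that start near each other, often took the same score, the member transcripts came from 2119 separate scored regions, of which 117 served several genes. Another transcript of the same gene had a TAF7L score in 125 member genes.

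All libraries came from testis of 3-month-old mice. Messenger RNA was sequenced in 1 library of Taf7l knockout males (KO, genotype Taf7l-/Y) and 1 library of wild-type males (WT), each from equal amounts of 6 RNA extracts. Chromatin for the TAF7L, Pol II and control IgG immunoprecipitations, 1 library each, came from 10 mice. These libraries are labelled wild type, although the shared protocol names wild-type and knockout chromatin. No condition had a replicate library, so every difference below is a size with no replicate check. Each ± is the deposited standard deviation (SD), whose basis the headers do not state. With 1 library per genotype it was read here as a technical spread over parts of that library, and is called the SD over parts. The sources used here give neither the strain nor the deleted part of Taf7l.

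Pol II is brought to promoters by general transcription factors, of which TFIID, made of the TATA-binding protein and its associated factors (TAFs), recognises the core promoter. TAF7L is a paralogue of the TFIID subunit TAF7, is encoded on the X chromosome and is abundant in male germ cells. In the testis, haploid spermatids switch on a large set of genes for the sperm head and tail, many of them from promoters with few CG dinucleotides, whereas broadly used genes tend to have CG-rich promoters.

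The promoters of 7 member genes show how widely the sequence varied among promoters with a Pol II score and no TAF7L score. They were taken from the RefSeq promoter table for GRCm38.p6, cover 250 bases before to 50 bases after the annotated start and are written 5′ to 3′ on the gene's strand, with each CG dinucleotide in capitals. Tnp1, Smcp and Pgk2 were among the sperm genes that were at least 2-fold lower in the knockout library. Gadd45a and Btg2 had the highest and the third-ranked Pol II score, Hprt is an X-linked gene, and Col4a1 was among the genes with the largest increase.
Tnp1 (chr1:73015850-73016149, minus strand): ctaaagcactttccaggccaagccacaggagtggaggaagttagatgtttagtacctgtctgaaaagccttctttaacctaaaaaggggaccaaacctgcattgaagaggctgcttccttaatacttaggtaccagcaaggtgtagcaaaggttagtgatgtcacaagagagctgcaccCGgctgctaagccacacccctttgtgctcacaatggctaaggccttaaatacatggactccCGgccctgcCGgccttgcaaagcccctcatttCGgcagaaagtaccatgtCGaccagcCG
Smcp (chr3:92589024-92589323, minus strand): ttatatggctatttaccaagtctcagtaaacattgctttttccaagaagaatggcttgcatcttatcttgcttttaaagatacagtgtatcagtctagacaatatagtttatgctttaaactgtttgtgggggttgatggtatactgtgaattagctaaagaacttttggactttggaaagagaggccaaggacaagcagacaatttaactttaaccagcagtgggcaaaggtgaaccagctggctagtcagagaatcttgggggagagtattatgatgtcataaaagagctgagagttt
Pgk2 (chr17:40208560-40208859, minus strand): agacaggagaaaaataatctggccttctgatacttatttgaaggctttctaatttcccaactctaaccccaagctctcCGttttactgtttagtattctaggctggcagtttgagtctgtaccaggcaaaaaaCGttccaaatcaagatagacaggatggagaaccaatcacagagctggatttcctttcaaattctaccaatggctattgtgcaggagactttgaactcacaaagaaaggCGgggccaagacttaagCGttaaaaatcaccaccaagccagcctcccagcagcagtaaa
Gadd45a (chr6:67037358-67037657, minus strand): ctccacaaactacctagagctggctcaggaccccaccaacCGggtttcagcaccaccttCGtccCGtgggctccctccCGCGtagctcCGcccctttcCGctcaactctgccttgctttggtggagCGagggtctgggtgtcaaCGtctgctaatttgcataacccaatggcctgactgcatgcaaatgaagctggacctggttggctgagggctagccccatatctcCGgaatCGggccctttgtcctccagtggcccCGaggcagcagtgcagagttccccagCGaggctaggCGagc
Btg2 (chr1:134079106-134079405, minus strand): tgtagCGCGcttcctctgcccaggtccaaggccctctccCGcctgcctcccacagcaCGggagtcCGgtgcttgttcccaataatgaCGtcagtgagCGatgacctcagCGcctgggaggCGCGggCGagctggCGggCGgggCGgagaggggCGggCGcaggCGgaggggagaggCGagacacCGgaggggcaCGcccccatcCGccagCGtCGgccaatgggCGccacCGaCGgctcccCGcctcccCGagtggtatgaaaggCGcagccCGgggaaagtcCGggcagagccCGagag
Hprt (chrX:52987828-52988127, plus strand): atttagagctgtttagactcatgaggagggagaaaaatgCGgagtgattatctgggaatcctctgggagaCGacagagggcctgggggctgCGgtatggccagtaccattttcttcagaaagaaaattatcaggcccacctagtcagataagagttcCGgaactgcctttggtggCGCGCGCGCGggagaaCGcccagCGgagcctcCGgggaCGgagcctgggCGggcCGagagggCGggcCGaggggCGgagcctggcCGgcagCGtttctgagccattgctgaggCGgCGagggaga
Col4a1 (chr8:11312777-11313076, minus strand): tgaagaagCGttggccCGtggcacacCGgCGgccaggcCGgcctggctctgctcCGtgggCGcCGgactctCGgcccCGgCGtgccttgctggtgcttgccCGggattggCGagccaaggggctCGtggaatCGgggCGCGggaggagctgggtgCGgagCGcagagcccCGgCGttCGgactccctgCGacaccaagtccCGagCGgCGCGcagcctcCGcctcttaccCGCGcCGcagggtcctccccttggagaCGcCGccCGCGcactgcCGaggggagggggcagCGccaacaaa

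The 7 windows ran from no CG at all to dense CG. Smcp had 0 CG dinucleotides in its 300 bases and a G+C content of 38%. Pgk2 had 4 and Tnp1 had 6, with ratios of observed to expected CG of 0.291 and 0.313. Gadd45a had 14 at a ratio of 0.508. Hprt had 22, Btg2 had 32 and Col4a1 had 37, at ratios of 0.844, 0.827 and 0.902. The letters TATAAA were in none of the 7 windows. Btg2 held TGACGTCA, the cyclic AMP response element, from base 85 of its window.

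As a population, the member promoters had a lower ratio of observed to expected CG than promoters with a TAF7L promoter score. A RefSeq promoter was found for 1461 of the 1919 member genes, or 80.2% of the 1821 that have a current RefSeq symbol on a chromosome of the promoter table. The same match was 84.1% for genes with TAF7L at the promoter and 81.9% for genes with TAF7L in the proximal or distal class only. The median observed-to-expected ratio of CG was 0.691 in members, 0.827 with TAF7L at the promoter and 0.67 with TAF7L elsewhere only. Promoters with a ratio under 0.35 made up 13.7% of members (200 promoters), 3.05% of those with TAF7L at the promoter and 14.7% of those with TAF7L elsewhere only. Among all 32851 promoters of the table the share was 47.0%. With a mean signal of at least 1, it was 14.6% in members and 14.8% over all genes with a promoter. The differences were not tested, and members resembled the promoters with TAF7L elsewhere only in each of these values.

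Short motifs were searched on both strands, and the share of member promoters that held each was set beside the share with TAF7L at the promoter, with TAF7L elsewhere only and in the whole table, in that order. TATAAA was in 7.43% of member promoters, against 5.73%, 7.59% and 13.6%. CCAAT was in 39.9% of member promoters, against 39.5%, 41.1% and 37.4%. The GC box letters GGGCGG were in 64% of member promoters, against 68.0%, 63.0% and 35.7%. TGACG, which is also contained in TGACGTCA, was in 27.3% of member promoters, against 37.6%, 26.9% and 20.8%. The full TGACGTCA was in 2.82%, against 3.99%, 2.93% and 1.79%. TAACGG, a core of the site bound by the meiotic factor A-MYB, was in 3.29%, against 4.71%, 2.53% and 2.76%. GTTGCC, found in the site bound by RFX factors, was in 12.6%, against 14.3%, 12.9% and 12.5%, and the E-box CACGTG in 9.65%, against 11.5%, 9.47% and 7.15%. A match describes letters in a window and not a bound site.

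The Pol II scores of the members were low among Pol II promoters. Their median was 186, with quartiles of 134 and 273 and a maximum of 960, against a median of 508 for transcripts with TAF7L at the promoter and 192 for those with TAF7L elsewhere only. The proximal Pol II score was 0 for 2340 members (55.1%) and the distal score for 2093 (49.2%). TAF7L promoter scores above 0 had a median of 71.4 and a 1st percentile of 29.9, so a value of 0 does not separate absent TAF7L from TAF7L below the level that the table records. On autosomes the median of those TAF7L scores was 41.8 where Pol II was 100 to under 200, 53.1 where it was 200 to under 400 and 81.7 where it was 400 or more. On the X chromosome it was 38.65 in the middle class (40 transcripts) and 43.3 in the highest (12 transcripts), with no score recorded in the lowest. Recorded X-linked scores thus lay nearer the lowest recorded values than autosomal ones. Just inside the threshold lay Il1r1, Fbln1, Cftr and Bst2 with a Pol II score of 100, and just outside it Cacna1b and Il10ra with 99.9. Among them, the RNA signal was highest for Bst2, at 14.4 in KO and 6.70 in WT, and lowest for Cacna1b, at 0.15 in KO and 0.09 in WT.

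The share of Pol II promoters without a TAF7L score differed between chromosomes. On the X chromosome 507 of 593 transcripts with the Pol II score were members, or 85.5% (95% Wilson interval 82.4 to 88.1). On autosomes 3734 of 24093 were members, or 15.5% (15 to 16). The intervals cover counting over transcripts only, and transcripts of a gene share a score. By gene the shares were 240 of 276 on the X chromosome, or 87.0%, and 1676 of 10731 on autosomes, or 15.6%. The autosomes ranged from 9.30% on chromosome 11 to 24.1% on chromosome 18, so the X chromosome lay outside their range. All 9 transcripts of the Y chromosome with the Pol II score were members and lay at Ddx3y, Eif2s3y and Uty, with 1 transcript at Ddx3y named after its X-linked homologue Ddx3x.

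**Figure D1:**
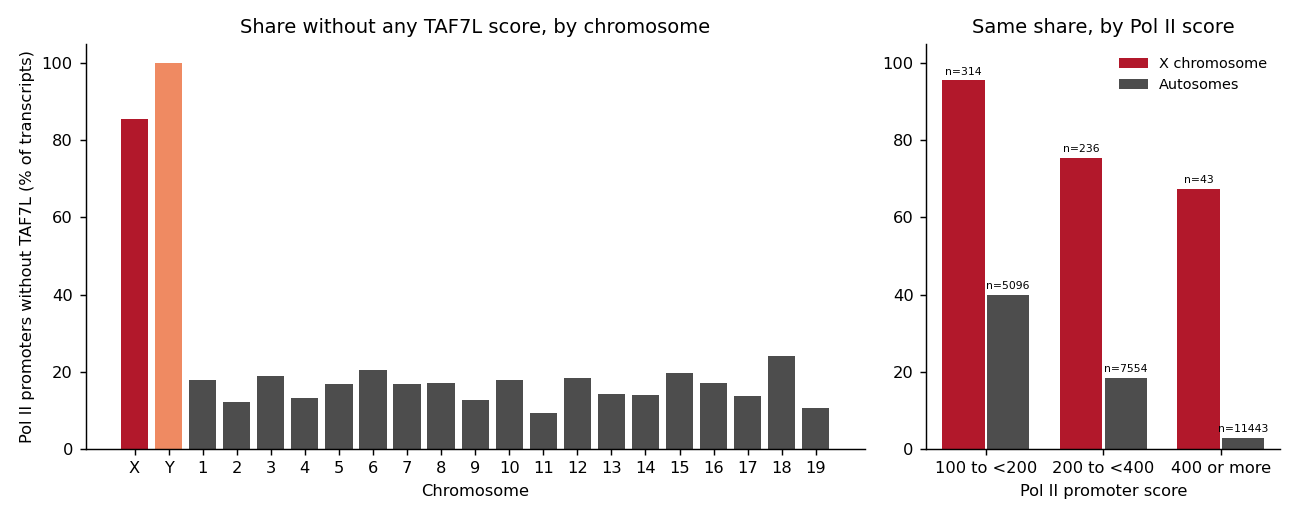
Share of transcripts with a Pol II promoter score of at least 100 that had no TAF7L score, in percent, for each chromosome (left) and for X and autosomes in 3 classes of Pol II score (right), with the number of transcripts over each bar. The X chromosome stands at 85.5% and no autosome is above 24.1%. The share falls with the Pol II score on X and on autosomes, and X is higher in each class.

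The share fell as the Pol II score rose, and the gap between the chromosomes stood in each class. With a Pol II score of 100 to under 200, 300 of 314 X-linked transcripts (95.5%) and 2033 of 5096 autosomal transcripts (39.9%) had no TAF7L score. From 200 to under 400 the shares were 75.4% on X and 18.3% on autosomes. At 400 or more they were 29 of 43 X-linked transcripts (67.4%) and 315 of 11443 autosomal transcripts (2.75%). A TAF7L promoter score was recorded for 0, 40 and 12 X-linked transcripts in the 3 classes, against 678, 4412 and 10675 autosomal transcripts. Copy number, mappability, input depth and the IgG level of the X chromosome were not analysed here.

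The RNA of member genes spanned from undetected to the most abundant sperm messages. The unit of the signal is not defined in the table, whose values are on the scale of reads normalised to transcript length and library size. Before any filter, the median signal of member genes was 3.73 in KO and 2.32 in WT, against 11.2 in KO and 8.28 in WT for genes with TAF7L at the promoter. In total, 1449 member genes (75.5%) had a mean of both libraries of at least 1, 470 were below it, and 6 were at 0 in both libraries. A gene can pass that filter through the library in which it is high. The members held 6.77% of the signal of all named genes in the knockout and 10.7% in the wild type. Their median ratio of SD over parts to mean was 0.135.

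Change was taken as log2((knockout + 1)/(wild type + 1)), a scale that shrinks differences between low values, and a gene was called at 2-fold. Among the 1449 member genes, 154 (10.6%) passed 2-fold upwards in the knockout, where the background over all 12722 genes with a mean of at least 1 was 7.28%. At least 2-fold lower were 158 member genes (10.9%), against a background of 7.18%. The median log2 change was 0.50 in members and 0.40 over all genes. Relative to the median of all genes, 13 member genes were higher (0.897%, background 1.12%) and 237 were lower (16.4%, background 12.8%). In bulk testis, fewer cells of a type and less RNA per cell cannot be told apart. Among genes with TAF7L at the promoter, 335 of 6835 were higher (4.90%) and 201 were lower (2.94%), with a median of 0.43. Among genes with TAF7L elsewhere only, 153 of 1843 were higher (8.30%) and 179 were lower (9.71%), with a median of 0.47. Members thus passed 2-fold in each direction more often than genes with TAF7L at the promoter, a difference that was not tested across samples.

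**Figure D2:**
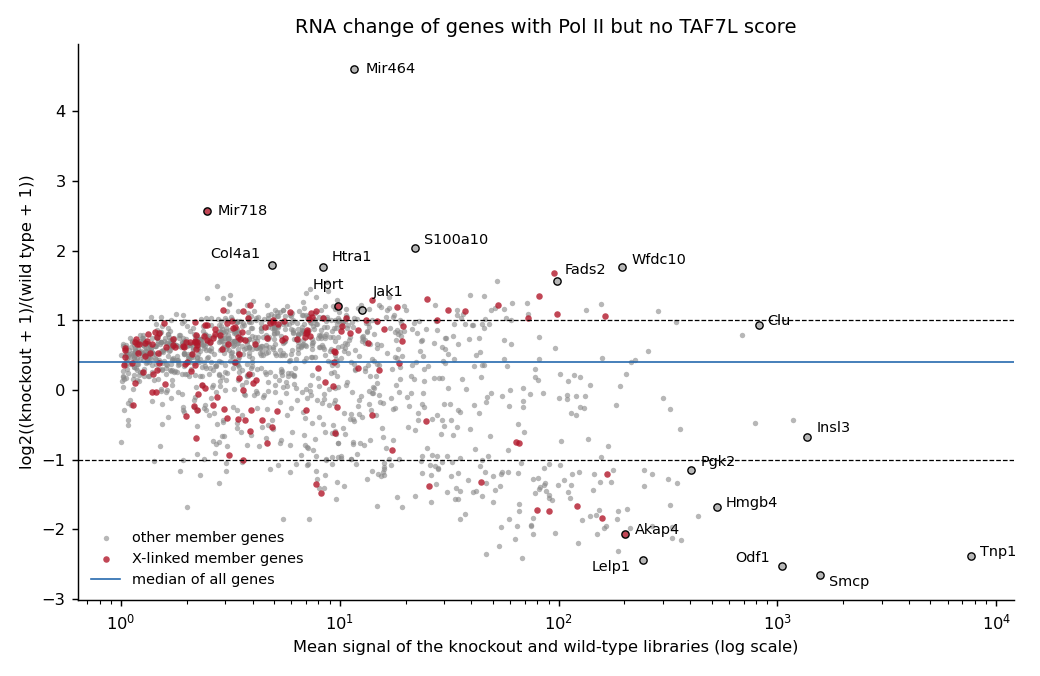
Log2 change, knockout over wild type with 1 added to each signal, against the mean signal of both libraries on a log axis, for the 1449 member genes with a mean of at least 1. Dashed lines mark 2-fold and the blue line the median of all genes, 0.40. Points with a mean of 100 or more lie mostly below the lower dashed line, ending in Smcp at -2.66 and Tnp1 at -2.38. Mir464 and Mir718, at the top, have an SD over parts larger than their mean.

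The decreases were concentrated among the abundant members. Of 85 member genes with a mean signal of 100 or more, 46 were at least 2-fold lower (54.1%) and 5 were higher (5.88%), and their median log2 change was -1.15. With a mean of 30 to under 100, 57 of 150 were lower (38%). With a mean of 1 to under 3, 6 of 476 were lower (1.26%). For all genes the share of lower calls was 20.0% at a mean of 100 or more and 1.93% at 1 to under 3. Genes with TAF7L at the promoter had 51 lower of 546 in the most abundant class (9.34%). Those with TAF7L elsewhere only had 51 of 90 (56.7%), close to the share in members. As deposited, increases were most frequent between a mean of 3 and under 100. In successive classes 15.5%, 13.5% and 16.0% of members were higher, against 5.80%, 6.62% and 5.52% with TAF7L at the promoter. With TAF7L elsewhere only the shares were 8.42%, 13.4% and 11.4%, and over all genes they were 9.06%, 9.82% and 7.54%. With the median of all genes set to 0, those shares of members were 0.982%, 0.873% and 2%, against 1.18% at 100 or more, so most of these increases lay within 2-fold of that median.

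**Figure D3:**
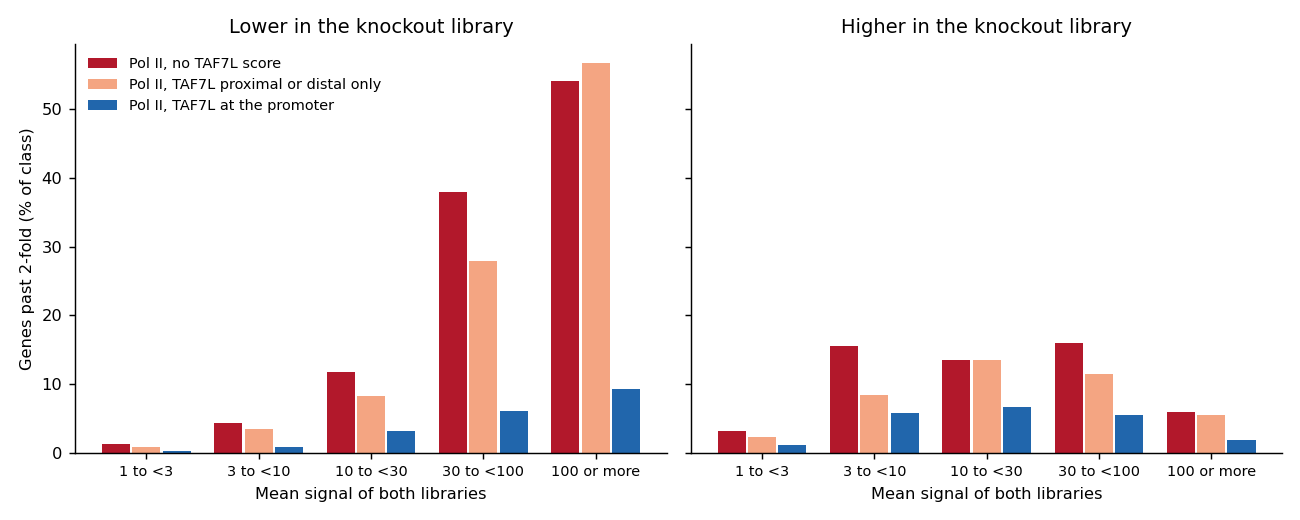
Percent of genes at least 2-fold lower (left) and higher (right) in the knockout library, in 5 classes of the mean signal of both libraries, for Pol II promoters with no TAF7L score, with TAF7L in the proximal or distal class only and with TAF7L at the promoter. Lower calls reach 54.1% and 56.7% in the most abundant class of the first and second sets and 9.34% in the third.

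The share of members called lower differed by the CG content of the promoter. Among members with a ratio of observed to expected CG under 0.35 and a mean signal of at least 1, 87 of 164 were at least 2-fold lower in the knockout (53.0%) and 3 were higher, with a median log2 change of -1.06. Their median signals were 18.9 in KO and 36.9 in WT. Among members with a ratio of 0.6 or more, 12 of 703 were lower (1.71%) and 86 were higher (12.2%), with a median of 0.59. Their median signals were lower, at 5.42 in KO and 3.28 in WT. Between those bounds 26 of 255 members were lower (10.2%) and 31 were higher. Taken relative to the median of all genes, lower calls outnumbered higher ones in each class of members. Under 0.35, 104 were lower (63.4%) and 0 higher. Between the bounds the counts were 41 (16.1%) and 1, and at 0.6 or more 35 (4.98%) and 7. Genes with TAF7L at the promoter showed the same order, with 39 of 164 lower under 0.35 (23.8%) and 89 of 4680 lower at 0.6 or more (1.90%). With TAF7L elsewhere only, 104 of 226 were lower under 0.35 (46.0%). Over all genes with a promoter, 410 of 1438 were lower under 0.35 (28.5%), 7.02% between the bounds and 2.18% at 0.6 or more. Higher calls made up 7.65%, 7.69% and 6.89% of them. Relative to the median of all genes, 42.4%, 13.6% and 5.54% were lower. Lower calls outnumbered higher ones in each class there too. The classes also differed in signal level, and its part in these shares was not tested.

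**Figure D4:**
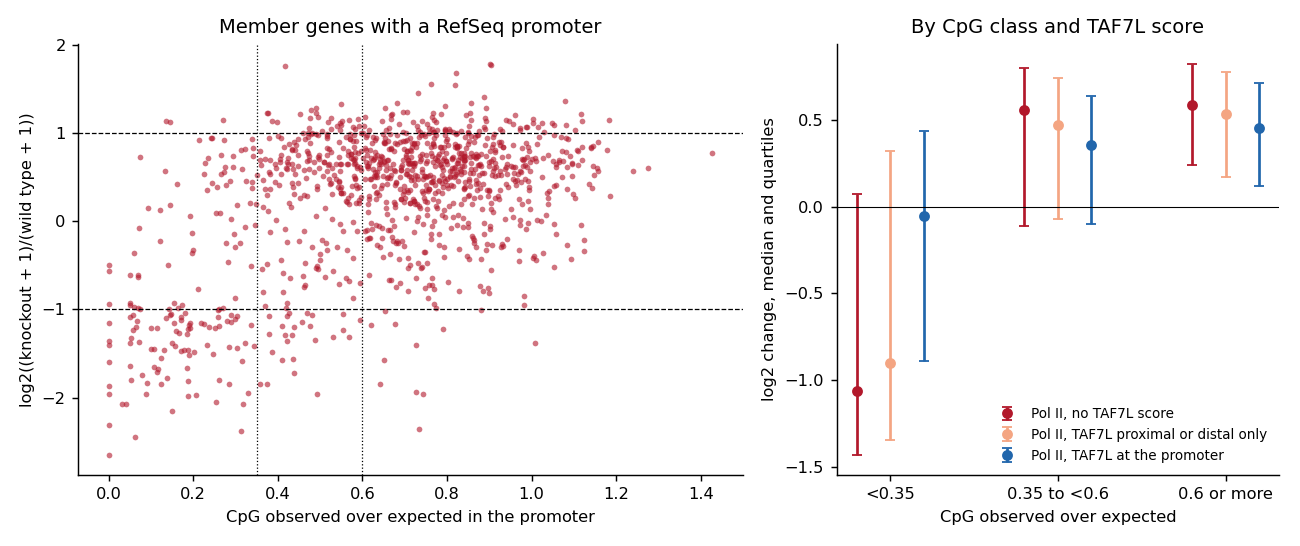
Left, log2 change (knockout over wild type) against the ratio of observed to expected CG in the RefSeq promoter for member genes whose mean signal was at least 1, with dotted lines at 0.35 and 0.6 and dashed lines at 2-fold. Right, median and quartiles of the log2 change in the 3 CG classes for members and for genes with TAF7L elsewhere only or at the promoter. Members under 0.35 have a median of -1.06 and members at 0.6 or more a median of 0.59.

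Among members the most abundant messages were those of late spermatids and of somatic cells. Tnp1, the transition protein that holds sperm DNA between histones and protamines, had a signal of 2465 ± 87.4 in KO and 12873 ± 166 in WT, a log2 change of -2.38. The gene lies at chr1:73061648-73062473 (mm9) with a Pol II promoter score of 461. Prm1, Prm2 and Tnp2, the other main packaging proteins, had TAF7L proximal and distal scores and were not members. H1fnt, the spermatid linker histone, had a signal of 192 ± 9.12 in KO and 673 ± 18.7 in WT. For 1700024P04Rik, which RefSeq names H2bl1, the signals were 95.4 in KO and 315 in WT. Of the 5 packaging genes among the members these 3 were at least 2-fold lower. The ubiquitin ligase scaffold Cul4b, at 8.84 in KO and 10.6 in WT, and 1700014N06Rik, at 1.47 in KO and 0.62 in WT, were within 2-fold. Across all 20 listed packaging genes, members or not, 11 were lower and 0 higher, and their summed signal was 12294 in KO and 64621 in WT. Lower calls made up 7.18% of all genes, and 20.0% of those with a mean of 100 or more.

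The sperm tail held the largest decrease. Smcp, which is rich in cysteine and coats the mitochondria of the tail, had a signal of 426 ± 16.9 in KO and 2689 ± 38 in WT, a log2 change of -2.66. Odf1, a main protein of the outer dense fibres, had 312 ± 13.3 in KO and 1796 ± 30.7 in WT. Akap4, the X-linked scaffold of the fibrous sheath, had 77.0 ± 3.44 in KO and 327 ± 7.90 in WT. Spata19, a mitochondrial protein of the midpiece, had 161 in KO and 373 in WT. Spata6, needed for the head-to-tail connection, had 61.1 in KO and 151 in WT. All 5 tail genes among the members were at least 2-fold lower, and in the whole list 19 of 36 were lower and 0 higher. The share of lower calls was 7.18% over all genes and 20.0% over those with a mean of 100 or more.

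Acrosome genes were also lower, by smaller folds. The acrosome is the secretory vesicle over the sperm nucleus. Each of its 6 member genes was at least 2-fold lower, with log2 changes between -1.38 and -1.04. Acrv1, an acrosomal vesicle protein, had a signal of 63.0 ± 4.37 in KO and 164 ± 7.47 in WT. Capza3, an actin-capping subunit of sperm, had 48.5 in KO and 124 in WT. Pdilt, a testis chaperone for sperm surface proteins, had 29.5 in KO and 71.1 in WT. Spaca3, a lysozyme-like membrane protein, had 43.5 in KO and 90.9 in WT. Izumo1, required for fusion with the egg, had 16.3 in KO and 35.5 in WT. For 1700094C09Rik, which RefSeq names Spaca7, the signals were 29.5 in KO and 78.2 in WT. In the whole list of 37, 16 were lower and 1 higher, with a summed signal of 2766 in KO and 4086 in WT. Over all genes 7.18% were lower and 7.28% higher, and 15.3% were lower at a mean of 30 to under 100.

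Energy and signalling genes of sperm were mixed. Of 8 member genes for energy metabolism 3 were at least 2-fold lower, where the share was 7.18% over all genes. Hk1, hexokinase, had a signal of 79.6 ± 2.82 in KO and 289 ± 4.29 in WT. Oxct2a, a testis enzyme of ketone body use, had 61.0 in KO and 217 in WT. Pgk2, the autosomal phosphoglycerate kinase of sperm, had 251 ± 12.7 in KO and 556 ± 17.9 in WT. Gykl1 and Slc16a7, at log2 changes of -0.80 and -0.95, passed 2-fold only relative to the median of all genes. Slc2a5, a fructose transporter, Pfkp and Cox7b2 were within 2-fold on each scale, with Cox7b2 at 127 in KO and 109 in WT. Among 4 members for ion channels and signalling, Plcz1, the phospholipase that activates the egg, had 11.0 in KO and 33.3 in WT. Catsper3, a subunit of the sperm calcium channel, had 9.99 in KO and 21.7 in WT, and both were called lower. The exchanger gene Slc9a10, at 9.61 in KO and 9.38 in WT, and the calcium pump gene Atp2b4, at 13.1 in KO and 6.30 in WT, were not called.

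**Figure D5:**
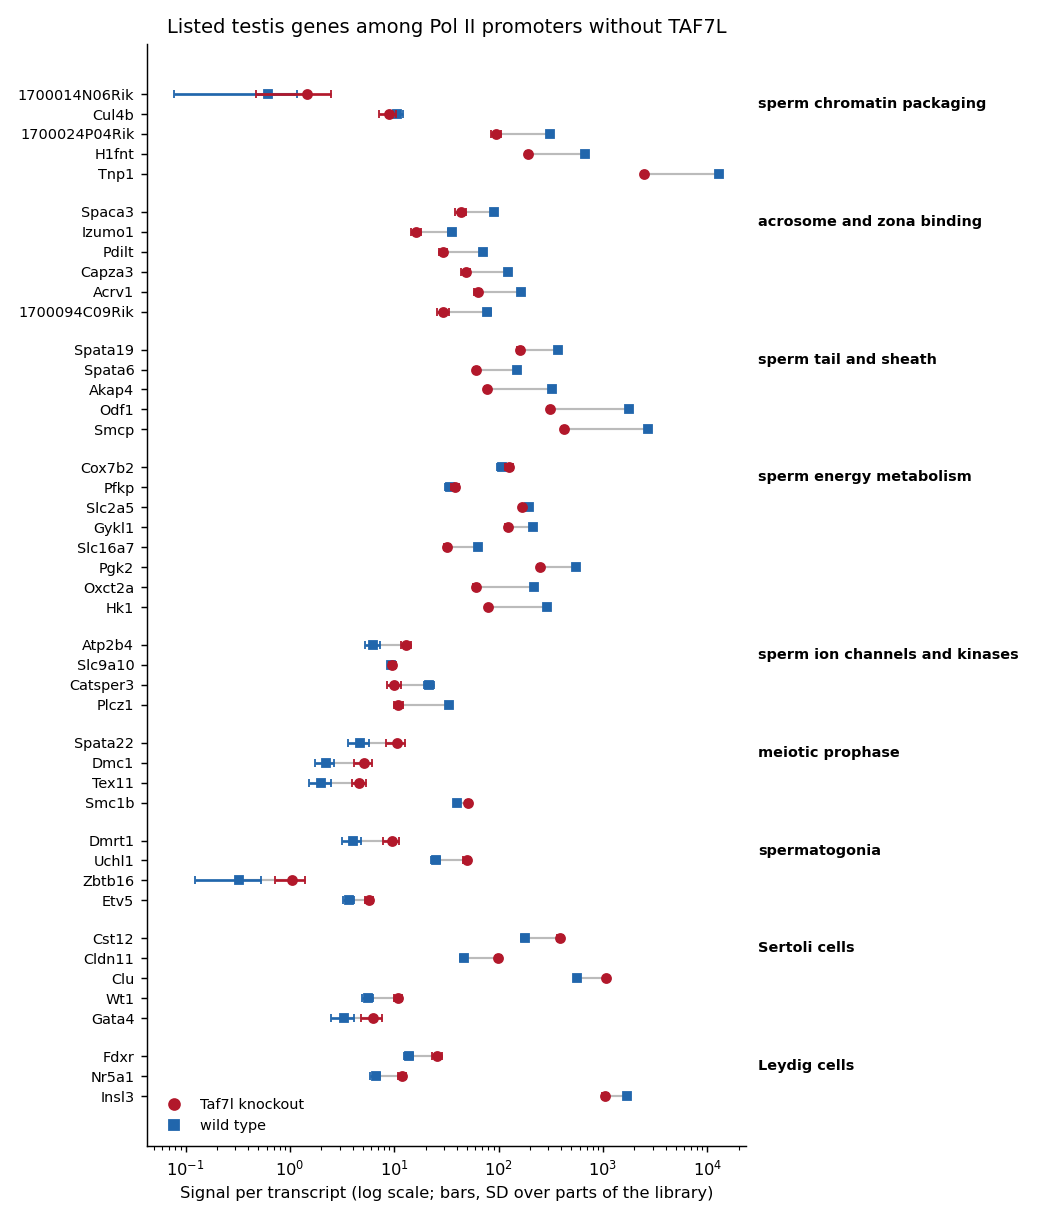
Signal of the listed testis genes among the members on a log axis, knockout as red circles and wild type as blue squares, with bars for the SD over parts of each library and genes grouped by role. Packaging, acrosome and tail genes lie lower in the knockout except for 1700014N06Rik, and the meiotic, spermatogonial and Sertoli genes lie higher. Insl3 is the only Leydig cell gene shown that is lower in the knockout, at 1052 against 1686.

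Earlier germ cells were represented by few members, most of them higher in value. Spata22, a factor of meiotic recombination, was the meiotic gene called higher, at 10.5 ± 2.19 in KO and 4.71 ± 1.07 in WT. Dmc1, the meiotic recombinase, had 5.1 in KO and 2.2 in WT, Tex11, an X-linked meiotic gene, had 4.63 in KO and 2.01 in WT, and the cohesin gene Smc1b had 51.3 in KO and 39.6 in WT. None of these 3 passed 2-fold on the scale used. Dmrt1, a regulator of spermatogonia, was called higher at 9.54 in KO and 3.99 in WT. Uchl1 had 49.5 in KO and 25 in WT, Etv5 had 5.78 in KO and 3.65 in WT, and Zbtb16 had 1.05 in KO and 0.33 in WT, a mean below the filter. No gene of the piRNA pathway was a member, of 18 listed genes with the Pol II score. The postmeiotic regulators held 2 members of 18 such genes, Rfx4 at 14.5 in KO and 14.2 in WT and Tbl1xr1 at 2.02 in KO and 1.51 in WT, neither called. Over the whole lists, members or not, 4 of 29 meiotic genes were higher and 1 lower, 3 of 18 piRNA genes were higher, 5 of 15 spermatogonial genes were higher, and 5 of 19 postmeiotic regulators were lower, where the shares over all genes were 7.28% higher and 7.18% lower.

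Members in the Sertoli, Leydig and peritubular lists were higher in value, apart from Insl3. Clu, a secreted chaperone abundant in Sertoli cells, had a signal of 1076 ± 26.4 in KO and 564 ± 11.4 in WT, a log2 change of 0.93 that is just under 2-fold. Cst12, a cystatin of Sertoli cells, had 390 in KO and 178 in WT, and Cldn11, a tight junction claudin, had 99.2 in KO and 46.2 in WT, and both were called higher as deposited. Wt1 had 10.9 in KO and 5.55 in WT and Gata4 had 6.23 in KO and 3.28 in WT. Insl3, the Leydig cell hormone of testis descent, had 1052 ± 68.5 in KO and 1686 ± 94.7 in WT, a change of -0.68 as deposited and -1.08 relative to all genes. Nr5a1, the steroidogenic regulator, had 12.0 in KO and 6.62 in WT, and Fdxr, the ferredoxin reductase of mitochondrial steroid synthesis, had 25.7 in KO and 13.8 in WT. Acta2, smooth muscle actin of peritubular cells, was called higher at 67.8 in KO and 30.0 in WT, while Smtn was below the filter at 1.08 in KO and 0.50 in WT. Cst8, an epididymal and testicular cystatin, was called lower at 87.7 in KO and 222 in WT. Relative to the median of all genes no member of the Sertoli, peritubular, meiotic, spermatogonial or housekeeping lists was higher at 2-fold, with Cst12 at 0.73, Cldn11 at 0.68, Acta2 at 0.75, Spata22 at 0.61, Dmrt1 at 0.67 and Hprt at 0.81 on the log2 scale.

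Markers of some cell types differed between the libraries as whole lists. The 5 late spermatid genes were all lower, with a summed signal of 11051 in KO and 61034 in WT. Sertoli genes summed to 3247 in KO and 1622 in WT, with 12 of 23 higher and 0 lower. Leydig genes summed to 1836 in KO and 2357 in WT, with 4 of 18 higher and 1 lower. Insl3 alone gave 1052 of that sum in KO and 1686 in WT, and the median log2 change of the list was 0.77. Peritubular and smooth muscle genes summed to 316 in KO and 317 in WT, with 4 of 10 higher and 1 lower. The median log2 change of that list was 0.89. Macrophage and leukocyte genes summed to 300 in KO and 79.0 in WT, with 5 of 12 higher, and no gene of that list was a member. Endothelial and blood genes summed to 126 in KO and 49.9 in WT, with 2 of 5 higher, and epididymal genes to 254 in KO and 259 in WT, with 4 of 7 higher and 1 lower. Of the epididymal sum Cst8 gave 87.7 in KO and 222 in WT, and the median log2 change of that list was 1.05. No defining marker in these lists was at 0 in both libraries. These counts read against 7.28% higher and 7.18% lower over all genes. The part of these values in the changes of the member genes was not tested. Taf7l itself, which carries a TAF7L promoter score of 39.2 and is not a member, had a signal of 2.04 ± 0.60 in KO and 13.2 ± 1.56 in WT.

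The general transcription machinery contributed 3 members of 31 listed genes with the Pol II score. Taf7, the paralogue of Taf7l that encodes the common TFIID subunit, had a Pol II score of 418 and a signal of 8.41 ± 1.09 in KO and 4.46 ± 0.69 in WT, a log2 change of 0.79. Taf1, the largest TFIID subunit and X-linked, had 2.13 ± 0.42 in KO and 0.75 ± 0.17 in WT. Taf9b, also X-linked, had 4.43 in KO and 3.90 in WT. None of the 3 was called at 2-fold on the scale used. In the whole list 1 of 31 genes was higher and 1 lower, against 7.28% and 7.18% over all genes. Of 21 housekeeping genes 2 were members, both X-linked. Hprt, of purine salvage, was called higher at 14.2 ± 2.46 in KO and 5.55 ± 1.24 in WT. Pgk1, the common phosphoglycerate kinase, had 20.9 in KO and 10.9 in WT.

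Most members with the highest Pol II scores had low RNA signals. Gadd45a, a growth arrest and stress response gene, had the highest score, 960, and a signal of 4.18 ± 1.38 in KO and 2.25 ± 0.94 in WT. Btg2, a gene that restrains proliferation, had a score of 909 and signals of 2.03 in KO and 0.92 in WT. Gadd45g, with a score of 808, had 9.17 in KO and 6.33 in WT. For 2900060B14Rik and the zinc finger gene Klf7, with scores of 949 and 870, the mean signal was below 1. Frmd6 at 835 and Swap70 at 727 had signals of 2.05 in KO and 1.06 in WT and of 3.38 in KO and 1.55 in WT. Genes called higher as deposited in this group included Jak1, a tyrosine kinase of cytokine receptors, at 17.7 in KO and 7.47 in WT, and Rasl11b, a Ras-like GTPase gene, at 4.65 in KO and 1.79 in WT. Gdap2 and Wdr3 shared a score of 715, and Gm2058 and Ube2h shared one of 695 over the same span, so their signals are not separate observations of a promoter. Creg1, also at 695, had 14.6 in KO and 11.5 in WT. The Gadd45, Btg and Klf families together held 8 members of 19 genes with the Pol II score (42.1%, 17.4% over all genes). They were picked with their values in view, so that share is a description. Of the 6 with a mean of at least 1, Klf17, at 2.99 in KO and 7.42 in WT, was the 1 called lower (7.18% over all genes).

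The share of members called lower was smaller in the higher Pol II classes. Members with a score of 100 to under 200 had 68 higher (9.76%) and 98 lower (14.1%). From 200 to under 400 the counts were 63 (10.4%) and 54 (8.94%). At 400 or more they were 23 (15.5%) and 6 (4.05%). Relative to the median of all genes, 9 (1.29%), 3 (0.497%) and 1 (0.676%) members were higher in the 3 classes and 149 (21.4%), 79 (13.1%) and 9 (6.08%) were lower, so the order of the increases did not hold on that scale. As deposited, genes with TAF7L at the promoter had 6.74%, 3.94% and 2.31% of genes called lower in the same classes. With TAF7L elsewhere only the shares were 12.7%, 7.68% and 5.63%, in the same order as in members. Over all genes, 7.28% were higher and 7.18% lower as deposited, and 1.12% and 12.8% relative to their median. In the highest class the median signal before any filter was 5.67 in KO and 3.69 in WT for 170 members, against 13 in KO and 9.54 in WT for genes with TAF7L at the promoter.

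The largest increases included genes of the extracellular matrix. S100a10, the partner of annexin A2, had a signal of 36.1 ± 5.86 in KO and 8.01 ± 2.49 in WT, a log2 change of 2.04. Col4a1 and Col4a2, the basement membrane collagens that share a promoter and a Pol II score of 188, were both called higher. Col4a1 had 8.14 ± 0.59 in KO and 1.64 ± 0.23 in WT, and Col4a2 had 13.6 ± 1.05 in KO and 3.98 ± 0.51 in WT. Col4a3 and Col4a4, a similar pair with a shared score of 109, had 3.96 and 5.68 in KO, against 0.98 and 1.86 in WT. All 4 collagen genes among the members were called higher as deposited (7.28% over all genes), of which Col4a1 and Col4a2 stayed past 2-fold relative to the median of all genes. The 4 genes come from 2 shared promoters. Of the 42 collagen genes in the table, 6 had the Pol II score. Plod2, a lysyl hydroxylase of collagen, had 4.53 in KO and 0.96 in WT, Htra1, a secreted protease, had 13.5 in KO and 3.24 in WT, and Olfml2b, a matrix protein gene, had 11.2 in KO and 3.46 in WT. Wfdc10 had 303 ± 18.5 in KO and 88.6 ± 11.1 in WT, and Fads2, a fatty acid desaturase, had 148 ± 6.26 in KO and 49.4 ± 3.75 in WT. SH3d19, at 79.1 ± 75.9 in KO and 26.0 ± 32.3 in WT, had a spread over parts near its mean.

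The largest decreases included sperm genes and genes known by a clone name. Behind Smcp and Odf1 came Lelp1, at 74.2 ± 5.90 in KO and 410 ± 15 in WT. Ubqlnl, a ubiquilin-like gene, had 20.9 in KO and 116 in WT. Tmem56 had 14.6 in KO and 79.1 in WT, and 4931407G18Rik, which RefSeq names Cabs1, had 62.3 in KO and 313 in WT. Iqcf3, with a calmodulin-binding motif, had 133 ± 7.48 in KO and 592 ± 20.0 in WT, and Hmgb4, a high mobility group gene of male germ cells, had 251 ± 19.4 in KO and 807 ± 27.1 in WT. For 1700031M16Rik and 1700034E13Rik the signals were 18.0 and 43.6 in KO, against 88.6 and 203 in WT. RIKEN genes named like 1700031M16Rik, with the same leading digits, had 50 members of 175 with the Pol II score (28.6%, 17.4% over all genes). Of the 49 with a mean of at least 1, 35 were lower (71.4%, against 7.18% of all genes) and 1 was higher, with a median log2 change of -1.22. On the scale relative to all genes 38 were lower (77.6%, against 12.8% of all genes). RIKEN genes named like 4931407G18Rik, which share its leading 49, had 48 members of 184 (26.1%). Of the 44 with a mean of at least 1, 18 were lower (40.9%) and 0 higher. Of 57 Zfp zinc finger members, 27 passed the filter and none was called in either direction as deposited. Their median signals were low, at 2.41 in KO and 1.62 in WT. Over all genes with a mean of 1 to under 3, 3.19% were higher and 1.93% lower. Relative to the median of all genes 1 Zfp member was lower, Zfp780b at -1.19 on the log2 scale. Sord, a sorbitol dehydrogenase, was abundant and within 2-fold at 659 in KO and 912 in WT.

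X-linked members were called higher more often than autosomal members. Of 240 X-linked member genes 175 had a mean of at least 1, of which 27 were higher (15.4%) and 10 lower (5.71%), with a median log2 change of 0.66. Of 1272 autosomal member genes 127 were higher (9.98%) and 148 lower (11.6%), with a median of 0.48. Over all genes 7.28% were higher and 7.18% lower. In the most abundant class the direction was the other one, with 4 of 5 X-linked genes lower. Relative to the median of all genes, 2 X-linked members were higher (1.14%) and 18 lower (10.3%). On autosomes 11 were higher (0.865%) and 219 lower (17.2%). The X-linked share was not particular to members. At a CG ratio of 0.6 or more, 28 of all 165 X-linked genes were higher as deposited (17.0%), against 21 of 111 X-linked members (18.9%). On autosomes those shares were 6.64% and 11.0%. The difference between the chromosomes was not tested. Of the Y-linked members, Eif2s3y had 14.4 in KO and 16.3 in WT, Ddx3y had 1.94 in KO and 1.05 in WT, and Uty had 0.50 in KO and 0.35 in WT.

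The largest X-linked decreases included genes of the sperm head and tail. Behind Akap4 came 1700054O13Rik, at 68.5 ± 10.4 in KO and 249 ± 17.1 in WT. Cypt3, a cysteine-rich protein of the perinuclear theca, had 57.5 in KO and 185 in WT. Cypt7 and Cypt8, which overlap in position and so share reads, had 41.2 and 36.5 in KO, against 139 and 123 in WT. The largest X-linked increases included ribosomal protein genes. Rpl39, of the large ribosomal subunit, had 117 ± 18.2 in KO and 45.5 ± 9.56 in WT. Rpl36a, with 146 ± 91.7 in KO and 44.9 ± 44.0 in WT, had a wide spread over parts, and each of these ribosomal protein genes has near-identical copies elsewhere, so their counts are uncertain. The ribosomal protein genes on autosomes, Rpl31 at 94.4 in KO and 69.2 in WT and Rps9 at 306 in KO and 207 in WT, were within 2-fold. Wbp5 had 36 in KO and 14 in WT, Gm364 had 20.4 in KO and 7.76 in WT, and Pqbp1, a splicing-linked gene, had 5.86 in KO and 1.93 in WT. Fmr1, the RNA-binding protein gene of fragile X syndrome, had the highest X-linked Pol II score with its antisense neighbour Gm10474, 650, and a signal of 3.31 ± 0.44 in KO and 1.51 ± 0.28 in WT. Ddx3x, an RNA helicase gene with a score of 622, had 4.88 in KO and 2.29 in WT.

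Genes of core cellular machines gave few members. Cytosolic ribosomal protein genes had 4 members of 79 with the Pol II score, mitochondrial ones 5 of 71, proteasome subunits 3 of 35 and the Sf3, Snrp and Hnrnp splicing genes 1 of 36. These compare with 17.4% of all genes with that score. The member share also fell as the Pol II score rose, and the part of that score in these counts was not tested. None of the 5 mitochondrial ribosomal or 3 proteasome members was called. Solute carriers had 34 members of 164 (20.7%). Of the 24 with a mean of at least 1, 1 was higher, Slc25a5, the X-linked adenine nucleotide carrier, at 74.8 in KO and 31.5 in WT. Positions of microRNA genes gave 10 members of 42 (23.8%), of which 6 were at 0 in both libraries. The remaining ones were wide over parts, with Mir762 at 1000 ± 1063 in KO and 1349 ± 1236 in WT, Mir464 at 23.4 ± 181 in KO and listed at 0 in WT, and Mir718 at 4.95 ± 38.3 in KO and listed at 0 in WT. Member transcripts with only a clone accession and a mean of at least 1 numbered 216, of which 25 were higher and 65 lower (7.28% and 7.18% over all genes), with a median log2 change of -0.34.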

How the data were processed

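The authors deposited 2 tables on the mouse build mm9. Per the file headers, the expression table gives for each transcript a mean and a standard deviation of a signal in each genotype, a log2 ratio of both genotypes and the ratio of each spread to its mean. Per the file headers, the binding table gives a TAF7L and a Pol II score for each transcript in promoter, proximal and distal classes. Neither header defines the signal, its standard deviation, the score, the distances or the use of the IgG library. A value of 0 was read as no assigned score, and the standard deviation as a spread over parts of 1 library. Bowtie was used for ChIP reads, and Bowtie with TopHat and Cufflinks for RNA reads, per the submitters' processing notes, which the sources used here give without versions. Per the labels, 8 µg of pooled RNA gave 100 to 200 M reads per library, and 1 mg of chromatin sheared to 175 to 225 bp was precipitated with 4 µg of antibody or 8 µg of IgG. The depth of the ChIP libraries is unknown.

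Tables were joined by transcript accession, and 69 transcripts of the binding table had no expression value. Transcripts with empty distal cells (4) were not members. Symbols were merged through RefSeq synonyms of GRCm38, used for names only. Each gene was represented by its member transcript, or otherwise any transcript, with the highest mean signal, since transcript values were not treated as parts of a sum. Strand was not stated, so overlapping and antisense genes could not be separated. Transcripts with the same Pol II score within 5000 bp were taken as 1 scored region. Comparison at 2-fold used genes whose mean reached 1, after adding 1, with no p-value because each genotype had 1 library. Promoter sequences were RefSeq windows for GRCm38.p6, and a gene with several starts took the mean over them. The promoter table covers no gene of chromosome 18. Shares for genes with a Pol II score under 100 were left out of the promoter comparison, because under 80% of them had a promoter.

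Genes were named by rank of Pol II score (15), wild-type signal (10), increase and decrease (10 each, with a spread over parts below the mean), by their place in lists of testis, cell type, TFIID and housekeeping genes, and by nearness to the threshold. Some genes that this rule takes are left out of the text. Gene families, X-linked genes and the 7 printed promoters were picked with their values in view. The members and the lists were chosen with earlier results of these data known. The procedure was tested on simulated data. Calculations used Python 3.11 with pandas 2.3.3 and numpy 2.4.6.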

Additional observations from a re-analysis of the deposited data

How the results depend on the processing

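None of the alternatives turned the direction of a median or of a chromosome difference, but many sizes moved. Across the alternatives, 26 shares or medians left the 95% Wilson interval of the main share or shifted the median by over 0.1, and 20 did not. These counts include the 3 Pol II classes on X and on autosomes, which are parts of the data and not other settings. The interval serves only as a yardstick of size, because the alternatives reuse the same libraries. The share of member genes at least 2-fold higher and lower was 25.7% and 12.4% with 0.1 added in place of 1 (median 0.65), 28.7% and 12.9% with nothing added (median 0.68), 14.9% and 19.8% with a mean of at least 5 (median 0.30), and 8.03% and 8.23% with no filter on the mean (median 0.38). The background over all genes moved with them. It was 16.3% higher and 9.02% lower with 0.1 added, and 17.9% and 9.05% with nothing added. It was 8.93% and 9.93% at a mean of at least 5, and 4.22% and 4.13% with no filter. Relative to the median of all genes the shares were 0.897% and 16.4% (median 0.10). With every transcript as its own row 8.70% were higher, against a background of 5.01%. With a Pol II score of at least 200 the lower share was 7.96%, close to the background of 7.18%. The share of Pol II promoters without TAF7L was 74.2% on X and 8.95% on autosomes at a Pol II score of at least 200, and 88.1% and 20.3% at 50. In the 3 Pol II classes it was 95.5%, 75.4% and 67.4% on X, and 39.9%, 18.3% and 2.75% on autosomes. The settings that lowered the Pol II threshold, kept only genes with no TAF7L score on any transcript, kept only genes with a spread over parts below the mean, or left out X and Y (chosen after seeing the data) left the shares of member genes within their 95% Wilson interval and their medians within 0.1. No replicate could be left out, since each genotype and antibody had 1 library. No paired analysis was possible because each genotype had 1 pooled library. Pooling hides the spread between mice. A score of 0 depends on the depth and calling of the TAF7L library, neither of which the sources used here give, so weak TAF7L below its lowest recorded scores cannot be told apart from none.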
